A study of Mus musculus with 12 samples.

Results

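Hepatocyte-derived cells that had reached the last sorted stage of biliary reprogramming, called full, were compared with both end identities, that is with lineage-marked cells that still lacked biliary surface markers (early) and with native biliary epithelial cells (BEC). The comparison took the mean of the 3 full libraries against the midpoint of the log means of 3 early and 3 BEC libraries, 9 of the 12 libraries in the series, and then asked which genes lay beyond both ends. All mice were labelled wild type (WT), were injected with AAV8-TBG-Cre and, starting 1 week afterwards, ate a diet with 0.1% DDC (3,5-diethoxycarbonyl-1,4-dihydrocollidine, which injures bile ducts) for 8 weeks. TBG is a hepatocyte promoter, so the EGFP label marks cells descended from hepatocytes. Early cells were EGFP+ Cd24- Epcam-, full cells were EGFP+ Cd24+ Epcam+ and BEC were EGFP- Epcam+. The 3 remaining libraries, EGFP+ Cd24+ Epcam- and called intermediate, entered the fit to estimate the spread. Because every group carried the virus and the diet, the early group is a hepatocyte population exposed to injury, and no uninjured liver is among the 12 libraries.

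In cholestatic injury, hepatocytes can switch off metabolic genes and take on genes of the bile duct epithelium, a conversion known to involve YAP, Notch and TGF-beta signalling. A converting cell can lie between its 2 end identities in any gene, or can hold transcripts that neither end holds at a comparable level. Loosening of epithelial junctions, intermediate filament vimentin and the Zeb and Snail repressors are textbook parts of the epithelial to mesenchymal transition, and several fetal or imprinted genes are silent in the adult liver.

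Total counts ran from 15112893 to 19731887 per library, and 16210 of 53599 genes passed the filter on low counts. Levels are in CPM, counts scaled to library size and TMM factor, and 3 counts in 1 library, taken as the floor, correspond to 0.128 to 0.273 CPM. Mitochondrial transcripts took 5.45% to 11.4% of counts in early libraries, 2.20% to 2.48% in full and 2.58% to 3.43% in BEC. The labels say only that replicates are separate samples, so p-values measure the spread between these samples. Identity markers followed the labels at both ends. Summed over 18 hepatocyte markers, early libraries held 120209 to 125877 CPM, full 4991 to 6562 CPM and BEC 2639 to 3385 CPM. Over 20 biliary markers the sums were 1237 to 2246 CPM in early, 13839 to 16950 CPM in full and 17689 to 20923 CPM in BEC. Spp1, osteopontin, alone made up 9929 to 13336 CPM of the sum in full and 10889 to 14481 CPM in BEC, and the other biliary markers summed to 3608 to 3911 CPM in full and 6442 to 6799.9 CPM in BEC. Of the 20, 11 were called lower in full than in BEC (10.7% of all genes were), with a list median of -0.82. The sort marker Epcam, a duct surface adhesion protein, stood at 283, 273 and 207 CPM in the full libraries and at 846, 907 and 844 CPM in BEC. The other, Cd24a, was at 1178, 1112 and 931 CPM in full, 1299.8, 1002 and 918 CPM in BEC and 2.77, 5.55 and 1.29 CPM in early. In bulk samples, fewer cells of a type and less RNA per cell cannot be told apart.

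Genes that differed from the midpoint lay in similar numbers between the end means, mostly near BEC, and past both means. At an adjusted p under 0.05 in edgeR's quasi-likelihood test, 8612 genes (53.1%) differed from the midpoint, 4811 higher (29.7%) and 3801 lower (23.4%). Of the 4811 higher genes, 2208 had a full mean between the end means, and 2120 of those lay nearer to BEC. Of the 3801 lower genes, 1858 lay between the end means and 1821 of those nearer to BEC. A further 2279 higher and 1877 lower genes lay past both means without meeting the rule for a gene beyond both ends. That rule asked that full differ from early and from BEC, each at an adjusted p under 0.05 and each at least 2-fold, in the same direction. It was met by 324 genes above both ends (2% of those tested) and by 66 genes below both ends (0.407%). Since the full libraries enter both tests, the differences are not independent of each other.

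How firmly a gene lies beyond both ends depends on where the line is drawn. Just inside the limit above were Akap12 and Peg3, at log2 fold changes of 1.002 and 1.003 against BEC, and just outside it were Arrb2 (0.9994 against BEC) and Slc25a34 (0.99 against early). Below, Pllp and Psd4 were inside at -1.004 against BEC and -1.01 against early, while Klhl3 and Tfrc were outside at -0.96 and -0.94 against BEC. Scaling by total counts alone shifted the median difference from the midpoint over the whole table from 0.07 to 0.497. It turned the split of midpoint calls from 55.9% higher into 85.4% higher, with 9125 higher and 1558 lower. Upper quartile factors gave 63.2% higher. Under total counts the genes beyond both ends numbered 400 above and 36 below.

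The 324 genes above both ends were mostly sparse at both ends, while the intermediate cells already held a good part of their transcripts. Their median level was 0.498 CPM in early, 1.70 CPM in BEC and 7.48 CPM in full, with a median of 3.31 CPM in intermediate. In 84 of them the early group held no more than 3 counts in total, and in 13 the BEC group did, 8 of these in both ends. BEC was the nearer end for 253 genes and early for 71. The median distance past the nearer end was 1.88 on the log2 scale, 147 genes were at least 4-fold past it and 55 at least 8-fold. In 322 genes no full library overlapped any library of either end. Summed over the set, full libraries held 8363, 8928 and 8952 CPM, intermediate 5857, 5463 and 5182 CPM, early 1196, 1271 and 1275 CPM and BEC 2425, 2935 and 2791 CPM. Levels in full reached 100 CPM in 21 genes and stayed under 1 CPM in 28.

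**Figure D1:**
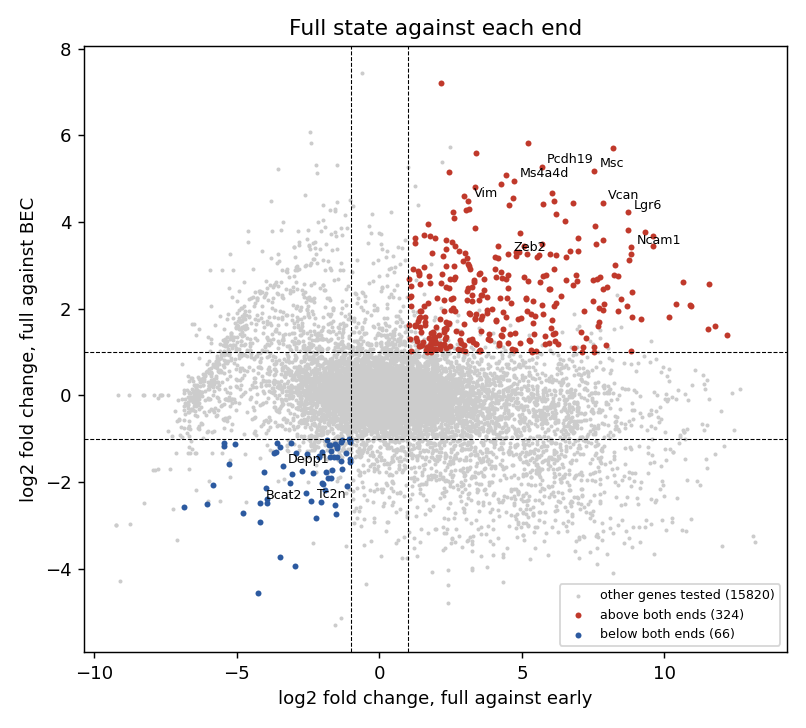
Log2 fold change of full against early (x axis) and of full against BEC (y axis) for the 16210 genes tested, one point per gene, with broken lines at 2-fold. The 324 genes above both ends (red) fill the upper right corner, and the 66 below (blue) lie in the lower left.

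Transcription regulators formed part of this set. Zeb2, a zinc-finger repressor of epithelial genes, was at 0.554, 1.27 and 2.02 CPM in the early libraries, 2.601, 4.19 and 2.42 CPM in BEC and 29.8, 30.7 and 27.8 CPM in full. All 3 full libraries were far above all 6 end libraries, with log2 fold changes of 4.52 ± 0.31 (SE, adjusted p = 1.58e-08) against early and 3.26 ± 0.26 (adjusted p = 1.23e-06) against BEC. Its relative Zeb1 did not meet the rule, at 28.9 ± 1.85 CPM in early, 32.6 ± 4.02 CPM in full and 9.52 ± 0.939 CPM in BEC (mean ± SD, n = 3). Snai2, of the Snail family, fell from 10.7 ± 0.973 CPM in early to 0.842 ± 0.236 CPM in full (adjusted p = 7.27e-07). Tbx1, a T-box factor of pharyngeal and heart development, measured 6.802, 1.09 and 0.243 CPM in early, 4.14, 12.6 and 4.34 CPM in BEC and 165, 167 and 118 CPM in full. The early libraries differed widely among themselves in Tbx1, yet the highest of them stayed far below the lowest full library. Its changes were 5.75 ± 0.72 against early (adjusted p = 7.17e-06) and 4.41 ± 0.63 against BEC (adjusted p = 0.000165). Msc, the basic helix-loop-helix repressor musculin, held 12.1, 11.6 and 10.9 CPM in full and 0.193, 0.373 and 0.366 CPM in BEC. In early cells only 2 counts were seen over 3 libraries, a full to early ratio of 208 (95% counting interval 57.4 to 1720.4). Against BEC it was higher by 5.18 ± 0.45 on the log2 scale (adjusted p = 2.51e-06). Zfp57, a zinc-finger protein that maintains DNA methylation at imprinted genes, stood at 0.395, 0.909 and 0.8903 CPM in early, 2.12, 4.43 and 4.34 CPM in BEC and 31.7, 33.98 and 34.6 CPM in full, rising by 5.52 ± 0.31 and 3.198 ± 0.23 (adjusted p = 1.79e-09 and 5.13e-07).

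Further regulators were found by list. All lists used here and below were chosen with earlier results of these data known, so their shares are descriptive. Of 23 basic helix-loop-helix factors tested, Msc and Arnt2 (8.7%, against 2% of all genes) were above both ends. Arnt2, a partner of PAS-domain factors, was at 47.7, 41.1 and 33.1 CPM in full against 9.63, 9.78 and 9.05 CPM in BEC and 0.158, 0 and 0.324 CPM in early. Of 37 Klf, Gata, Runx and Ets factors, Etv4, an Ets factor downstream of growth factor signalling, was the 1 above (2.7%, near the 2% of all genes), at 51.6, 32.7 and 32.7 CPM in full, 10.2, 9.37 and 8.68 CPM in BEC and 0.554, 0.455 and 0.647 CPM in early. Satb1, a chromatin organiser, was at 5.11, 4.103 and 2.36 CPM in full and 0.145, 0.186 and 0.183 CPM in BEC, the only member above both ends (5%) of 20 homeobox factors outside the Hox clusters. The sole Hox gene that passed the filter, Hoxb3, was above both ends at a mean of 0.917 ± 0.143 CPM (SD, n = 3), a level set by few counts. None of 7 Sox factors and 36 nuclear receptors lay beyond both ends, which in lists of this length is near the shares over all genes (2% above, 0.407% below).

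**Figure D2:**
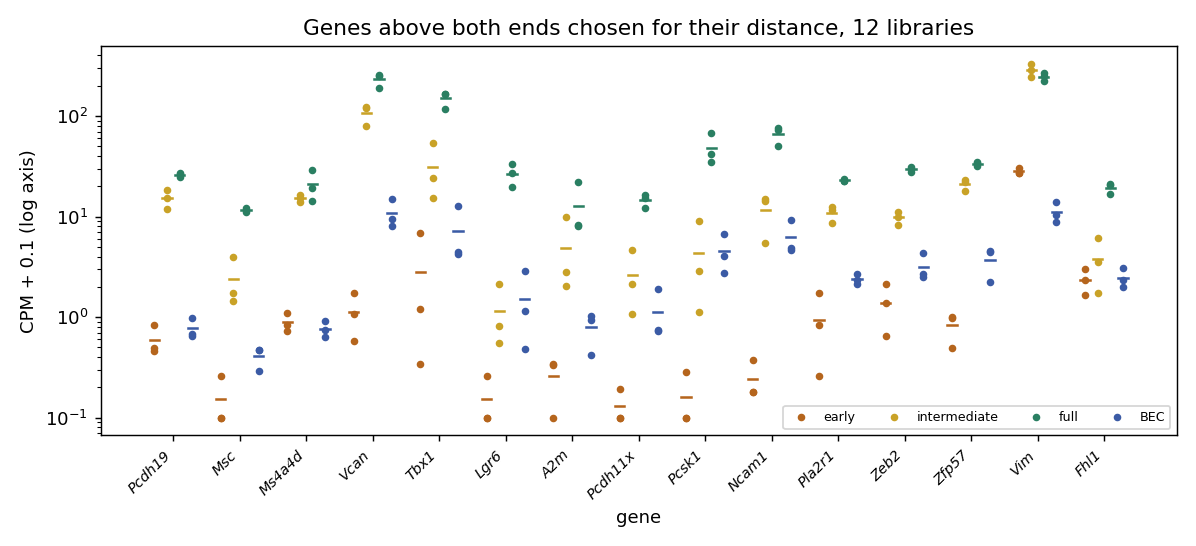
CPM plus 0.1 on a log axis for the 15 genes above both ends named for their distance past the nearer end, one point per library and a bar at each group mean, with early, intermediate, full and BEC side by side. The 3 full points of each gene sit above all early and BEC points; in Vim the intermediate points are as high as the full ones.

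Genes of the mesenchymal transition were split. Of 16 list members tested, 4 (25%, against 2% of all genes) were above both ends and none below. Across the list the median log2 fold change was 0.65 against early and 1.12 against BEC, while it was 0.14 and -0.0046 over all genes. Vim, the intermediate filament vimentin, measured 30.6, 26.7 and 27.1 CPM in early, 8.77, 13.7 and 10.4 CPM in BEC and 266, 223 and 248 CPM in full. It was therefore already counted in the early libraries and lowest in BEC, and rose by 3.12 ± 0.16 against early (adjusted p = 8.31e-10) and 4.49 ± 0.17 against BEC (adjusted p = 4.05e-09). Which cells of the early libraries held Vim was not tested. Ncam1, a neural cell adhesion molecule also found on reactive ductular cells, was at 0.0791, 0.273 and 0.0809 CPM in early, 4.82, 9.23 and 4.57 CPM in BEC and 50.6, 76.1 and 72.1 CPM in full, with differences of 8.83 ± 0.61 (adjusted p = 1.51e-08) and 3.42 ± 0.35 (adjusted p = 1.01e-05). Loxl2, a collagen-crosslinking oxidase, stood at 32.3, 33.1 and 39.2 CPM in full, 6.64, 5.18 and 3.399 CPM in early and 3.56, 4.01 and 2.83 CPM in BEC. Other members did not lie beyond both ends. Cdh2, N-cadherin, was higher in full than in BEC by 2.97 ± 0.13 but above early by only 0.56 ± 0.12. Fn1, fibronectin, showed 3352 ± 242 CPM in early, 2856 ± 209 CPM in full and 1697 ± 127 CPM in BEC.

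Cadherins and protocadherins were represented by 6 of 24 tested (25%, against 2%), namely Pcdh19, Cdh23, Pcdh9, Dsc3, Cdh9 and Dsc2, while the list median was 2.96 against early (2.79 with uncounted genes at their bound) and -0.13 against BEC. Pcdh19, a homophilic adhesion protein best known in the brain, was at 0.395, 0.364 and 0.728 CPM in early, 0.578, 0.885 and 0.548 CPM in BEC and 24.5, 26.4 and 27.3 CPM in full. The full libraries lay close together, and the differences were 5.69 ± 0.28 (adjusted p = 5.15e-10) and 5.27 ± 0.24 (adjusted p = 1.31e-08), the largest distance past the nearer end among the named genes. Pcdh11x, an X-linked protocadherin, was at 15.2, 16.5 and 12.1 CPM in full and 0.626, 1.82 and 0.6397 CPM in BEC (3.82 ± 0.49, adjusted p = 7.81e-05). Early cells gave 1 count in all, a ratio of 525 (95% counting interval 94.1 to 20769.8). Dsc3, a desmosomal cadherin of stratified epithelia, had no count in the early libraries, 0.385, 0.233 and 0.3199 CPM in BEC and 2.298, 2.41 and 4.505 CPM in full. Full was at least 36.8-fold higher than early, against a floor of 3 counts over the group, and higher than BEC by 3.27 ± 0.43 (adjusted p = 0.000194). Dsc2, its relative in simple epithelia, was abundant at both ends, with 124, 109 and 125 CPM in early, 159, 134 and 131 CPM in BEC and 274, 283 and 374 CPM in full. Its smaller difference of 1.14 ± 0.14 against BEC fell to 0.98 without the third full library. Cdh9 and Cdh23 were low, at 1.595 ± 0.496 and 1.27 ± 1.01 CPM in full. E-cadherin, Cdh1, kept an order between the ends at 335 ± 30.2 CPM in early, 1106 ± 31.97 CPM in full and 1502 ± 69.2 CPM in BEC. No integrin of 24 lay beyond both ends.

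Contractile and cytoskeletal genes followed. Of 23 actin and contractility genes, 3 (13%, against 2% of all genes) were above both ends. Flnc, filamin C, an actin crosslinker of muscle, reached 175, 184 and 174 CPM in full against 39.5, 47.7 and 40.1 CPM in BEC. In early cells it gave 3 counts over 3 libraries, so the ratio was 2130.4 (95% counting interval 729 to 10332), and it was above BEC by 2.07 ± 0.19 (adjusted p = 4.61e-06). Myh10, non-muscle myosin heavy chain IIB, measured 83.8, 62.7 and 84.98 CPM in early, 131, 171 and 165 CPM in BEC and 292, 374 and 349 CPM in full. Its rise was even across the 3 full libraries, at 2.13 ± 0.14 and 1.12 ± 0.13 (adjusted p = 9.62e-09 and 4.21e-05). Myl9, a myosin regulatory light chain, was at 8.21, 7.22 and 6.78 CPM in full, 2.02, 1.77 and 0.914 CPM in BEC and 0.0791, 0.455 and 0.647 CPM in early. The related Myh9, at 1727 ± 42.2 CPM in full and 1452 ± 196 CPM in BEC, and Actb, beta-actin, at 1669.8 ± 207 and 1532 ± 238 CPM, did not differ from BEC by the test (adjusted p = 0.18 and 0.671). Fhl1, a LIM protein of muscle, was at 2.21, 1.55 and 2.91 CPM in early, 2.22, 2.98 and 1.87 CPM in BEC and 20.98, 20.4 and 16.5 CPM in full. Early and BEC libraries overlapped in Fhl1, and full exceeded them by 3.104 ± 0.37 and 3.03 ± 0.35 (adjusted p = 4.66e-06 and 3.13e-05). Tubb4a, a beta-tubulin of neurons, was at 10.6, 9.499 and 8.27 CPM in full and 4.09, 4.1 and 3.06 CPM in BEC.

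Of the genes named for their distance, Vcan, A2m, Pcsk1 and Pla2r1 encode matrix, secretory pathway or cell surface proteins. Vcan, the proteoglycan versican of provisional matrix, measured 0.475, 1.64 and 0.971 CPM in early, 9.25, 14.7 and 7.91 CPM in BEC and 189, 254 and 251 CPM in full. Every full library lay far above every BEC library, and the fitted differences were 7.84 ± 0.35 (adjusted p = 2.68e-10) and 4.44 ± 0.26 (adjusted p = 1.01e-07). A2m, alpha-2-macroglobulin, a broad protease inhibitor, was at 0.237, 0 and 0.243 CPM in early, 0.915, 0.839 and 0.3199 CPM in BEC and 21.9, 8.03 and 8.09 CPM in full. The first full library stood above the other 2, and the differences were 6.197 ± 0.90 and 4.19 ± 0.67 (adjusted p = 2.77e-05 and 0.000423). Pcsk1, a convertase that cleaves prohormones in endocrine cells, held 68.4, 41.4 and 35.03 CPM in full and 2.65, 6.66 and 3.98 CPM in BEC (3.44 ± 0.53, adjusted p = 0.000318). Early cells gave 2 counts of it, a ratio of 873 (95% counting interval 241 to 7212). Pla2r1, a receptor for secreted phospholipase A2, stood at 0.158, 1.64 and 0.728 CPM in early, 2.26, 2.61 and 2.06 CPM in BEC and 22.4, 23.5 and 22.4 CPM in full (4.797 ± 0.37 and 3.299 ± 0.30, adjusted p = 4.89e-08 and 3.79e-06).

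Of 42 collagens and laminins, 4 (9.52%, against 2% of all genes) were above both ends and 1 (2.38%, against 0.407%) below. Col12a1, a fibril-associated collagen, was at 60.8, 54.9 and 79.4 CPM in full, 10.4, 13.5 and 14.7 CPM in early and 6.98, 6.104 and 5.76 CPM in BEC, a difference of 3.37 ± 0.16 against BEC (adjusted p = 1.68e-08). Col6a2, a microfibrillar collagen chain, was at 12.8, 14.4 and 12.8 CPM in full, 3.18, 4.05 and 4.204 CPM in BEC and 2.29, 7.46 and 5.099 CPM in early, the nearer end (1.44 ± 0.32, adjusted p = 0.00119). Col22a1 reached only 1.79, 2.54 and 2.45 CPM in full, with 0.475, 0.0909 and 0.162 CPM in early and 0.0482, 0.186 and 0.0914 CPM in BEC. The fourth was Col6a1. Among 44 matrix proteases and inhibitors, 4 (9.09%, against the same 2%) were above. Adamts14, which trims procollagen, was at 4.27, 3.36 and 2.75 CPM in early, 3.47, 4.61 and 4.295 CPM in BEC and 29.5, 32.1 and 32.3 CPM in full. Mmp24, a membrane-bound metalloproteinase, had 10.1, 14.9 and 8.703 CPM in full and 3.95, 3.35 and 4.295 CPM in BEC, and it was higher still in intermediate, at 16.3, 22.4 and 13.9 CPM (-0.64 ± 0.22 for full against intermediate, adjusted p = 0.0335). Mmp11 was at 47.01, 40.6 and 42.1 CPM in full and 19.3, 24.3 and 20.9 CPM in BEC, a difference of 1.01 ± 0.15 that fell to 0.94 without the first BEC library, to 0.95 without the first full library and to 0.99 without the third BEC library.

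Signalling pathways contributed a few ligands, receptors and targets each. In the Wnt list, 2 of 35 tested (5.71%, against 2% of all genes) were above and 1, Wnt5b, below (2.86%, against 0.407%). Lgr6, an R-spondin receptor and stem cell marker of skin, measured 19.7, 32.9 and 27.2 CPM in full and 0.385, 2.796 and 1.05 CPM in BEC, with 2 counts in all in early cells. The ratio to early was 477 (95% counting interval 132 to 3939) and the log2 difference from BEC 4.23 ± 0.52 (adjusted p = 5.18e-05). Fzd10, a Frizzled receptor, was sparse at 1.702, 1.69 and 3.63 CPM in full, 0, 0 and 0.647 CPM in early and 0, 0.233 and 0.228 CPM in BEC. Of 29 TGF-beta and BMP genes, Inhba and Fstl1 were above (6.9%, against the same 2%). Inhba, which encodes the activin A subunit, was at 21.4, 49.3 and 56.5 CPM in early, 23.9, 52.5 and 48.4 CPM in BEC and 139, 240.3 and 315 CPM in full. Library 1 was the lowest of its group in all 3 groups, and full exceeded early by 2.45 ± 0.44 and BEC by 2.48 ± 0.43 (adjusted p = 0.000184 and 0.000863). Fstl1, a secreted binding protein, was at 61.8, 85.8 and 60.4 CPM in full and 31.8, 34.2 and 34.96 CPM in BEC, a difference of 1.04 ± 0.26 whose call was lost without the second full library (0.86, adjusted p = 0.0630).

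Growth factor genes above both ends were 3 of 46 (6.52%, against 2% of all genes), and 1 (2.17%, against 0.407%) was below. Bdnf, a neurotrophin, was at 2.93, 4.001 and 6.64 CPM in early, 4.58, 7.69 and 7.86 CPM in BEC and 13.9, 17.1 and 19.5 CPM in full, with differences of 1.89 ± 0.28 and 1.33 ± 0.26 (adjusted p = 3.97e-05 and 0.00226). Mst1r, the receptor tyrosine kinase RON, was at 8.98, 7.22 and 6.56 CPM in full, 2.07, 1.68 and 2.15 CPM in BEC and 3.88, 3.18 and 1.46 CPM in early, the nearer end (1.42 ± 0.35, adjusted p = 0.00253). Areg, amphiregulin, a ligand of the EGF receptor, went the other way and stood at 0.128, 0.0446 and 0 CPM in full, 0.337, 0.513 and 0.228 CPM in BEC and 4.11, 5.64 and 2.99 CPM in early. Its call below both ends ended without any of 4 libraries (full 2 and 3, BEC 1 and 2), with an adjusted p up to 0.117. Of 9 Hedgehog genes, the ligand Ihh was below, at 34.2, 48.7 and 25.98 CPM in early, 0.936, 0.892 and 0.962 CPM in full and 2.26, 2.52 and 3.66 CPM in BEC, and the ligand Dhh above, at 1.41 ± 0.146 CPM in full (11.1% each, in a list too short to set against the shares over all genes). Without the third BEC library Ihh had an adjusted p of 0.0563 against BEC.

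In the Notch list, as over all genes, more members were called against early than against BEC. Of 17 tested, 12 were higher and 2 lower in full than in early, where 39.1% and 32.1% of all genes were called, and 4 were higher and 4 lower than in BEC, where 10.6% and 10.7% were. The ligand Jag1 stood at 16.3 ± 3.77 CPM in early, 333 ± 46.3 CPM in full and 337 ± 44.9 CPM in BEC, with a difference from BEC of -0.02 ± 0.15. Its relative Jag2 was above both ends, at 0.158, 0.273 and 0.324 CPM in early, 15.6, 16.1 and 17.6 CPM in BEC and 40.2, 39.3 and 28.3 CPM in full (1.13 ± 0.32 against BEC, adjusted p = 0.0199). The target gene Hey1 was also above, at 2.77, 3.52 and 3.32 CPM in full and 0.915, 1.63 and 2.06 CPM in BEC (1.06 ± 0.32, adjusted p = 0.0323). Leaving out any of 4 libraries (full 1 and 2, BEC 1 and 2) ended the call of Jag2, with an adjusted p up to 0.0710, and any of 5 (those 4 and full 3) that of Hey1, up to 0.112. Targets Hes1, Heyl and Nrarp did not differ from BEC by the test (adjusted p = 0.747, 0.913 and 0.676). Of 20 YAP targets, 16 were called higher than early, with a list median of 2.59 against early and -0.09 against BEC and none beyond both ends.

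Genes of the fetal liver and imprinted genes contributed single members. Of 16 fetal and oncofetal genes, 4 (25%, against 2% of all genes) were above both ends, the list median being 0.69 against early and 1.28 against BEC, where it was 0.14 and -0.0046 over all genes. Hmga2, an architectural chromatin protein of embryonic cells, was at 0.316, 0 and 0 CPM in early, 0.578, 0.326 and 0.731 CPM in BEC and 5.23, 7.49 and 5.77 CPM in full (5.72 ± 0.77 and 3.48 ± 0.56, adjusted p = 1.39e-05 and 0.000441). Bex1 was at 17.9, 21.5 and 21.04 CPM in full and 4.96, 9.64 and 10.2 CPM in BEC. Igf2bp2, an RNA-binding protein, was at 19.6, 14.3 and 13.1 CPM in full, 10.8, 5.27 and 5.58 CPM in early and 2.55, 2.66 and 2.92 CPM in BEC, and its difference from early fell to 0.92 without the second early or the first full library and to 0.96 without the third early library. The classic fetal markers Afp and H19 fell instead, with log2 fold changes of -2.197 ± 0.29 and -6.43 ± 0.43 against early (adjusted p = 1.12e-05 and 1.1e-08). Of 18 imprinted genes, Grb10, Cdkn1c and Peg3 (16.7%, against 2%) were above. Peg3 is counted in both lists, as it is also the remaining member of the 4 fetal and oncofetal genes. Grb10, an adaptor that restrains insulin and growth factor receptors, measured 0.554, 1.36 and 1.38 CPM in early, 74.5, 72.2 and 62.9 CPM in BEC and 184, 240.5 and 256 CPM in full. The 2 ends were far apart in Grb10, and full exceeded the higher of them by 1.698 ± 0.18 (adjusted p = 1.43e-05). Cdkn1c, a cyclin-dependent kinase inhibitor, was at 7.57, 6.6 and 5.03 CPM in full, 2.55, 2.702 and 2.92 CPM in BEC and 1.42, 2.001 and 2.104 CPM in early. Peg3 lay at the limit (1.003 ± 0.19 against BEC, 0.79 without the first BEC library), and its call also ended without early 2, intermediate 2 or 3 or full 2 or 3.

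Membrane proteins of excitable cells appeared among 98 ion channel genes, of which 6 (6.12%, against 2% of all genes) were above and 1 (1.02%, against 0.407%) below. Scn7a, an atypical sodium channel, measured 0.316, 0.728 and 0.405 CPM in early, 23.5, 22.8 and 16.4 CPM in BEC and 157, 125 and 144 CPM in full, with differences of 8.21 ± 0.37 and 2.77 ± 0.23 (adjusted p = 3.06e-10 and 1.69e-06). The pore subunit Scn3a was at 4.34, 4.95 and 4.505 CPM in full and 0.289, 1.03 and 0.777 CPM in BEC, and the auxiliary subunit Scn3b at 2.55, 2.72 and 2.41 and 0.337, 0.513 and 0.3199 CPM. Ms4a4d, of the membrane-spanning 4A family, stood at 0.633, 1 and 0.728 CPM in early, 0.5299, 0.652 and 0.822 CPM in BEC and 14.3, 19.2 and 29.2 CPM in full. The third full library was the highest, and the differences were 4.73 ± 0.31 and 4.95 ± 0.29 (adjusted p = 9.9e-09 and 1.1e-07). Slc35f1 was not counted in early cells, held 6.84, 7.27 and 6.76 CPM in BEC and 23.02, 19.6 and 17.5 CPM in full, and was at least 241-fold above early on the same floor. Among 278 solute carriers, 7 (2.52%) were above, near the 2% of all genes, and 4 (1.44%, against 0.407%) below.

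Other lists had a few members above both ends, to be read against the 2% of all genes. The serine synthesis enzyme Psat1 and the lipoprotein receptor Vldlr were 2 of 23 ATF4 and endoplasmic reticulum stress genes (8.7%), a list in which 16 were lower in full than in early (32.1% of all genes were), 10 were lower and 5 higher than the midpoint (23.4% and 29.7% of all genes), and the median from the midpoint was -0.61. Vldlr was at 93.3, 104 and 100.6 CPM in full and 51.3, 44.7 and 49.6 CPM in BEC, and without the second BEC library its difference was 0.98. Ifit2, 1 of 33 interferon-stimulated genes (3.03%, near the share over all genes), was at 25.1, 26.9 and 28.5 CPM in full, 11.8, 13.1 and 13.3 CPM in BEC and 5.77, 5.46 and 7.37 CPM in early. Krt20, typical of intestinal epithelium, was 1 of 11 keratins (9.09%, a share that rests on 1 gene). It was at 11.4, 8.25 and 7.43 CPM in full, 0.674, 1.26 and 1.46 CPM in BEC and 0.0791, 1.36 and 2.99 CPM in early. Cyp1b1, a cytochrome P450 induced by aryl hydrocarbons and 1 of 56 tested of that family (1.79%, under the share over all genes), was at 4.21, 4.77 and 4.94 CPM in full, 0.712, 0.909 and 0.567 CPM in early and 0.771, 0.978 and 0.3199 CPM in BEC.

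The most abundant genes above both ends were looked up after their values were seen. Of the 21 that averaged at least 100 CPM in full, Marcks, an actin-binding substrate of protein kinase C, was at 3.27 ± 1.18 CPM in early, 172 ± 32.6 CPM in BEC and 366 ± 11.4 CPM in full (mean ± SD, n = 3). Mcam, an adhesion molecule, was at 0.568 ± 0.358, 47.7 ± 2.48 and 185 ± 17 CPM in that order. Cav1, the scaffold of caveolae, was at 5.25 ± 2.85, 66.5 ± 8.74 and 137 ± 21.9 CPM. Other members were already well counted in early cells. Lgals1, galectin-1, was at 98.4 ± 11.9 CPM in early, 43.6 ± 9.32 CPM in BEC and 213 ± 15.5 CPM in full. Hspb1, a small heat shock protein, was at 52.5 ± 5.68, 68.9 ± 10.1 and 187 ± 26.2 CPM, and Prelp, a matrix proteoglycan, at 82.5 ± 2.95, 54.8 ± 12.2 and 169 ± 21.7 CPM.

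**Figure D3:**
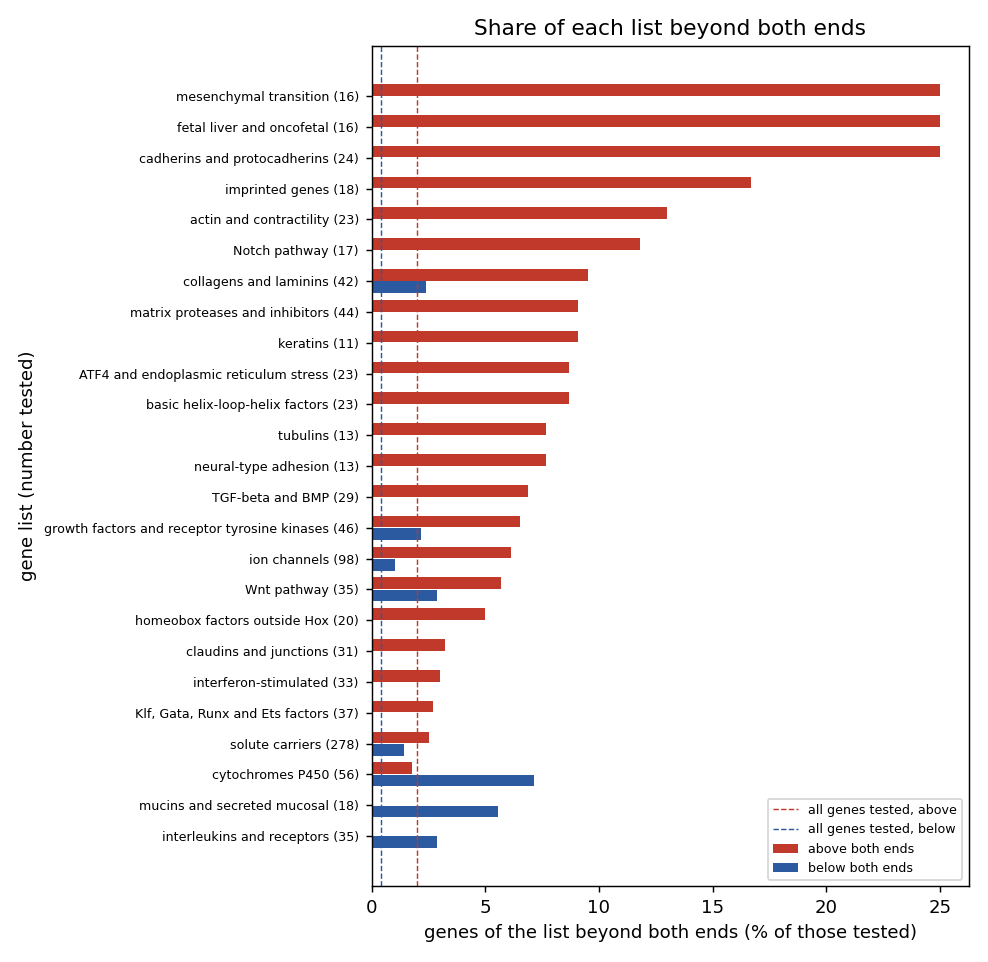
Percent of the tested members of each gene list that lay above (red) or below (blue) both ends, with the number tested in brackets and broken lines at the shares over all genes, 2% above and 0.407% below. The lists were chosen with earlier results of these data known, so a share past these lines is not an independent test. Lists with no member beyond both ends, lists of other cell types, the short Hedgehog and Hox lists and 1 list not reported here are not drawn; the mesenchymal transition, fetal and cadherin lists each reach 25% above.

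The genes above both ends differed in what the intermediate cells already held. Full against intermediate called 20.8% of all genes higher and 19.8% lower, and these comparisons share the full libraries with those above. Of the 324 genes above both ends, 171 were called higher in full than in intermediate, 8 lower and 145 neither, and in 51 the intermediate mean was the higher one. Vim was already at 332, 289 and 243 CPM in the intermediate libraries and did not differ from full by the test (-0.23 ± 0.14, adjusted p = 0.226). The same held for Ms4a4d (0.47 ± 0.22, adjusted p = 0.107), Loxl2 (-0.33 ± 0.17, adjusted p = 0.14) and Etv4 (0.02 ± 0.24, adjusted p = 0.959). Adamts14 was at 40.5, 45.4 and 33.9 CPM in intermediate (-0.35 ± 0.14, adjusted p = 0.0616, or 0.0459 with a replicate block), Col12a1 at 79.9, 75.6 and 84.1 CPM (-0.295 ± 0.14, adjusted p = 0.112) and Krt20 at 9.49, 14.1 and 11.2 CPM (-0.36 ± 0.43, adjusted p = 0.546), each with a higher mean than in full and, without the block, no call. Prelp averaged 240.2 ± 24.8 CPM in intermediate, Lgals1 259.9 ± 12.8 CPM and Hspb1 214.4 ± 36.3 CPM, each a higher mean than in full. Vcan, at 122, 119 and 79.9 CPM in intermediate, rose further in full by 1.11 ± 0.22 (adjusted p = 0.00129). Ncam1, Lgr6 and Pcsk1 were lower in intermediate than in full. Lgr6 was at 2.01, 0.712 and 0.453 CPM in intermediate and higher in full by 4.67 ± 0.55 (adjusted p = 1.65e-05). Pcsk1 was at 8.93, 2.79 and 1.02 CPM, with a further difference of 3.53 ± 0.54 (adjusted p = 0.000155), and Ncam1 at 14.9, 14.1 and 5.32 CPM, with 2.54 ± 0.33 (adjusted p = 4.09e-05). Fhl1 was at 5.97, 3.397 and 1.64 CPM in intermediate, with a further difference of 2.403 ± 0.34 (adjusted p = 8.37e-05).

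The 66 genes below both ends were fewer and closer to the ends. Their median level was 11 CPM in early, 3.97 CPM in intermediate, 2.27 CPM in full and 6.59 CPM in BEC, and the median distance past the nearer end was -1.43. In 63 genes no full library overlapped an end library, 18 genes were at least 4-fold past the nearer end and 2 at least 8-fold. BEC was the nearer end for 44 and early for 22. In 4 genes the full group held no more than 3 counts. Bcat2, the mitochondrial aminotransferase of branched-chain amino acids, measured 41.8, 47.2 and 34.2 CPM in early, 10.1, 13.3 and 14.5 CPM in BEC and 2.85, 2.14 and 1.79 CPM in full. All full libraries were below all end libraries, with differences of -4.17 ± 0.20 against early (adjusted p = 4.89e-10) and -2.48 ± 0.20 against BEC (adjusted p = 1.08e-06). Foxq1, a forkhead factor, was at 25.2, 14.6 and 14.2 CPM in early, 13.1, 14.4 and 16.1 CPM in BEC and 3.15, 2.99 and 2.97 CPM in full, with differences of -2.57 ± 0.24 and -2.25 ± 0.23 (adjusted p = 3.13e-07 and 1.15e-05). The early and BEC libraries overlapped in this gene, and the full libraries were nearly equal to each other. Depp1, a FoxO target linked to fasting and autophagy, was at 190.2, 131 and 204 CPM in early, 32.2, 45.7 and 77.6 CPM in BEC and 16.4, 15.5 and 18.1 CPM in full (-3.39 ± 0.35 and -1.64 ± 0.33, adjusted p = 1e-06 and 0.00272).

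Of 18 mucins and secreted mucosal genes, 1 (5.56%, against 0.407%), Slpi, was below both ends, a share that rests on this 1 gene. Single genes below both ends follow. Tmem30b, a subunit that lipid flippases need to reach the membrane, measured 95.7, 89.7 and 97.5 CPM in early, 74.9, 61.2 and 56.2 CPM in BEC and 19.8, 17.3 and 18.8 CPM in full. It was evenly low in the 3 full libraries, with differences of -2.34 ± 0.11 (adjusted p = 5.44e-10) and -1.78 ± 0.11 (adjusted p = 1.78e-07). Pls1, the actin bundler plastin 1 of microvilli, was at 46.6, 61.02 and 67.9 CPM in early, 65.6, 59.1 and 59.04 CPM in BEC and 19.7, 17.3 and 19.02 CPM in full (-1.65 ± 0.16 and -1.71 ± 0.16, adjusted p = 5.28e-07 and 4.27e-06). Tc2n, a C2-domain protein, was at 12.3, 9.73 and 13.6 CPM in early, 15.8, 10.9 and 10.6 CPM in BEC and 2.55, 1.47 and 2.799 CPM in full (-2.38 ± 0.34 and -2.45 ± 0.34, adjusted p = 2.79e-05 and 0.000137). Slpi, a secreted protease inhibitor of mucosal surfaces, was at 147, 93.9 and 79.3 CPM in early, 20.8, 20.7 and 22.8 CPM in BEC and 10.1, 8.56 and 7.52 CPM in full. Picked out after the values were seen, Grhl1 and Zfp750, regulators of surface epithelium, were also below, Grhl1 at 9.89, 10.1 and 8.09 CPM in early, 7.804, 8.29 and 8.54 CPM in BEC and 2.94, 3.17 and 3.15 CPM in full. Zfp750 was at 34.7, 58.9 and 54.3 CPM in early, 36.1, 39 and 37.9 CPM in BEC and 16.9, 13.8 and 15.4 CPM in full, and Scnn1a, the alpha subunit of the epithelial sodium channel, at 6.88, 9.64 and 11.6 CPM in early, 4.43, 4.1 and 3.98 CPM in BEC and 1.74, 1.204 and 1.92 CPM in full. Atp8b1, a flippase of the canalicular membrane, was at 83.5, 83.7 and 77.9 CPM in early, 50.1, 45.1 and 45.2 CPM in BEC and 22.04, 23.5 and 23.4 CPM in full. Grhl2, the grainyhead factor of bile ducts, was not among them and lay between the ends, with no count in early, 16.3 ± 4.22 CPM in full and 68.7 ± 3.405 CPM in BEC.

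Of 56 cytochromes P450 tested, 4 (7.14%, against 0.407%) were below both ends, mostly Cyp2d genes (Cyp2d10, Cyp2d11 and Cyp2d22). Cyp2d10 measured 864, 795 and 808 CPM in early, 45.3, 39.1 and 43 CPM in BEC and 19.6, 13.6 and 23.05 CPM in full, and its difference of -1.18 ± 0.15 against BEC came to -0.99 without the second full library. Cyp2d22 was at 348, 408 and 373 CPM in early, 300.2, 309 and 305 CPM in BEC and 142, 132 and 133 CPM in full. Ces1d, a carboxylesterase of hepatocytes, was at 333, 381 and 493 CPM in early, 126, 127 and 147 CPM in BEC and 44.3, 52.4 and 62.8 CPM in full (-2.92 ± 0.28 and -1.33 ± 0.26, adjusted p = 4e-07 and 0.00216). These families hold near-identical copies, and how reads shared between copies were counted is not given in the sources used here. These 3 genes, Cyp2d11 and the share of the cytochrome list are therefore uncertain. Il4ra, the interleukin 4 receptor chain, was at 93.7, 50.1 and 53.4 CPM in early, 65.8, 59.97 and 63.8 CPM in BEC and 25.7, 20.7 and 24.2 CPM in full (-1.48 ± 0.22 and -1.42 ± 0.22, adjusted p = 3.34e-05 and 0.000296). Tmtc2, an O-mannosyltransferase of the endoplasmic reticulum, was at 11.1, 16.4 and 16.1 CPM in early, 17, 16.7 and 16.1 CPM in BEC and 4.21, 4.01 and 5.03 CPM in full, and Col15a1, a basement membrane collagen, at 15.7, 21.5 and 22.99 CPM in early, 17.9, 26.05 and 20.7 CPM in BEC and 5.999, 5.71 and 5.55 CPM in full. Wnt5b, a noncanonical Wnt ligand, was at 17.7, 17.2 and 18.6 CPM in early, 12.04, 15.6 and 16.6 CPM in BEC and 8.04, 7.45 and 5.99 CPM in full, and its difference of -1.04 ± 0.16 against BEC came to -0.93 without the third full library. Its call also ended without the second or the third BEC library (-0.95 without the third). With total counts as the only scaling, Pls1 (-0.78), Tmtc2 (-0.85), Col15a1 (-0.93), Il4ra (-0.61), Cyp2d22 (-0.61) and Wnt5b (-0.45) kept their direction at the nearer end but not the 2-fold distance.

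**Figure D4:**
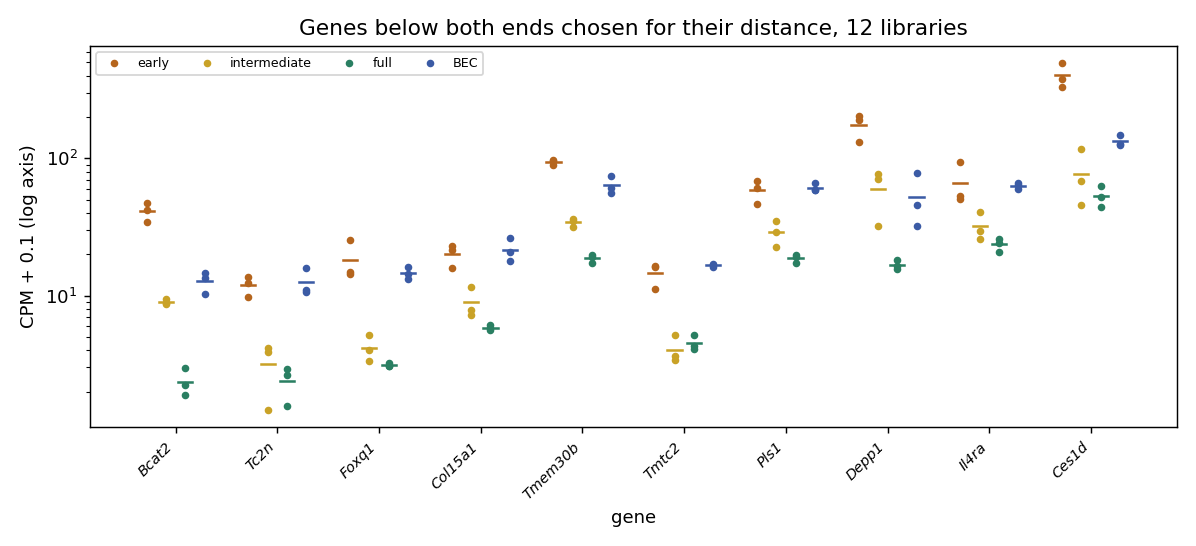
CPM plus 0.1 on a log axis for the 10 genes below both ends named for their distance past the nearer end, one point per library and a bar at each group mean, in the order early, intermediate, full and BEC. In each gene the 3 full points lie below every early and BEC point; in Tmtc2 the intermediate points are as low as the full ones.

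Promoter windows of the genes beyond both ends were searched for short motifs; that the genes of a set move in 1 direction is fixed by the rule. RefSeq windows (GRCm38.p6) of 300 bases, from 250 before to 50 after a gene's start, were found for 11575 of the 16210 genes (71.4%), among them 228 of the 324 above and 47 of the 66 below. The sequence CACCTG, an E-box core known to be bound by Zeb and Snail family repressors, was read on both strands as CACCTG or CAGGTG. It was in the windows of 24 of the 47 genes below (51.1%), of 37 of the 228 above (16.2%) and of 2113 of all 11575 (18.3%). At least 2 copies were in 7 of the 47 (14.9%) and in 308 of all (2.66%). Shown for the 5 that carry it among the 10 genes below both ends named for their distance are the 250 bases before the start, on the gene's strand, 5′ to 3′, with each CACCTG or CAGGTG in capitals. Tmem30b (chr12:73546396-73546645) holds 4 copies there, and Pls1 (chr9:95845280-95845529), Tc2n (chr12:101718524-101718773), Bcat2 (chr7:45569903-45570152) and Depp1 (chr6:116650434-116650683) hold 1 each. The first 3 lie on the minus strand and the other 2 on the plus strand.
Tmem30b: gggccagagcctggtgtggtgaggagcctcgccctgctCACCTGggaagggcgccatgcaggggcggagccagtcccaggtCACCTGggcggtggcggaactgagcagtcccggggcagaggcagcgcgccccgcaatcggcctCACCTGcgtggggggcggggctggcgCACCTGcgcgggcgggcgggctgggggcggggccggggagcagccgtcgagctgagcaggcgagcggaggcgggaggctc
Pls1: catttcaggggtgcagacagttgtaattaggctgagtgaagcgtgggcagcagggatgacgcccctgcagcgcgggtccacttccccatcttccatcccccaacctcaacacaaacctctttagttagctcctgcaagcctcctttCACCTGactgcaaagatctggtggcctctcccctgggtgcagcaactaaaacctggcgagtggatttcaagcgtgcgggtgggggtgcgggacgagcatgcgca
Tc2n: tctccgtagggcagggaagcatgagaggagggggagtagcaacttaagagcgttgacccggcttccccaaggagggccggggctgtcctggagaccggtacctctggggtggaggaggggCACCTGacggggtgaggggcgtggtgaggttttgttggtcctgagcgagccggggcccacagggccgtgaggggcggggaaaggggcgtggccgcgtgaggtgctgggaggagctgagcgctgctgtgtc
Bcat2: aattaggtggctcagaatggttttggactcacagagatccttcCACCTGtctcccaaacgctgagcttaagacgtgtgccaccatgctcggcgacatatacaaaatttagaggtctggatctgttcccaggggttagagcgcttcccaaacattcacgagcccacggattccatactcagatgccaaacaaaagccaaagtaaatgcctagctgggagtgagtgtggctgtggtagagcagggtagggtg
Depp1: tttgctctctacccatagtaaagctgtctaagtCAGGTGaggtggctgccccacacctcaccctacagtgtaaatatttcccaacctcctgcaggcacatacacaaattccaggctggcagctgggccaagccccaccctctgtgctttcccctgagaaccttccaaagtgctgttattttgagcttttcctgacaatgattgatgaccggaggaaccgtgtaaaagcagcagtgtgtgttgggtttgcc

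The windows of Col15a1, Il4ra and Tmtc2 held no such letters, and Foxq1 and Ces1d were not matched. Among the genes named by list, Slpi, Areg, Wnt5b and Cyp2d10 also had the E-box in the window, while Ihh did not. Further genes below both ends with it included Lgals3, P2ry2, Eps8l3, Tmprss3, Tinag and Slco2a1. Those without it included Grhl1, Cd68, Igfbp5, Npc1l1, Kcnk5 and Ugt1a1. No window of a member overlapped that of another. The share moved with the gene set. Without a minimum fold change it was 62 of 208 windows (29.8%) for genes below both ends and 79 of 498 (15.9%) for those above. Among all genes lower in full than in BEC it was 353 of 1287 (27.4%), and among those lower than in early 696 of 3918 (17.8%). In the 250 bases before the start alone it was 22 of 47 (46.8%) against 15.7% of all genes, and with every listed window of a gene 51.1% against 21.9%. The 47 windows had a median of 10 CpG, against 15.5 for the genes above and 20 for all genes, and a median GC content of 59%, 60.7% and 60.3%. The part of base composition in this share was not tested, and binding of any factor was not measured.

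Of 9 motifs searched on both strands, none of which contains another, the remaining 8 gave the following shares. For genes below, above and all, the AP-1 motif TGANTCA was in 8.51%, 6.14% and 5.37%, and the TEAD motif CATTCC in 12.8%, 17.1% and 12.3%. The RBPJ motif TGGGAA was in 14.9%, 25% and 23.5%, TATAAA in 12.8%, 8.33% and 7.68%, and CCAAT in 27.7%, 37.3% and 38.5%. The cyclic AMP element TGACGTCA was in 2.13%, 2.19% and 3.07%, the HNF1 half-site GTTAAT in 8.51%, 4.82% and 4.66%, and the HNF4 motif CAAAGTCCA in 2.13%, 0% and 0.492%. With 47 windows, 1 gene is worth about 2.13 percentage points.

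**Figure D5:**
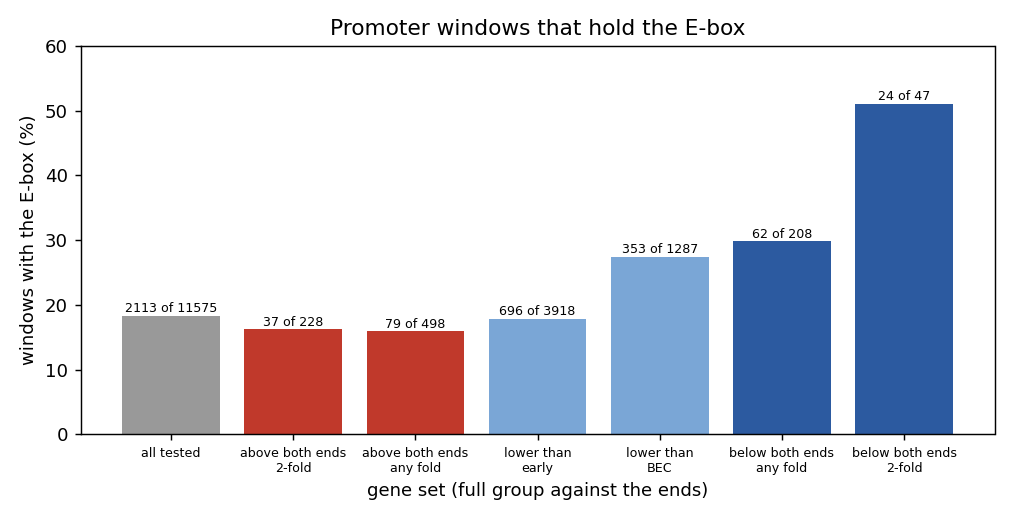
Percent of promoter windows of 300 bases that hold CACCTG on either strand (y axis) in 7 gene sets (x axis), with the counts above each bar. The bar for genes below both ends at 2-fold stands at 51.1%, against 18.3% for all tested genes.

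Markers of other cell types were checked because stromal cells express several of the genes above both ends. Of 18 stellate cell and fibroblast markers, 15 were tested and none lay beyond both ends, which at this length is near the 2% and 0.407% over all genes. In full, 2 of the 15 were higher and 11 lower than in early, where 39.1% and 32.1% of all genes were, and Pi16 gave no count. The summed level was 3015 to 3489 CPM in full, 157 to 401 CPM in early and 1742 to 2322 CPM in BEC. Rgs5 alone made up 2944 to 3398 CPM of the sum in full and was also high in BEC, at 1590 to 2192 CPM. Defining fibroblast genes were lower on average in full than in early, with some overlap of libraries. Dcn was at 8.94, 26.5 and 25.98 CPM in early, 7.701, 3.79 and 4.02 CPM in full and 12.3, 4.94 and 8.68 CPM in BEC. Col1a1 was at 18.03, 49.2 and 55.5 CPM in early, 18.2, 12.2 and 19.6 CPM in full and 15.8, 15.3 and 27.2 CPM in BEC and Col3a1 at 21.99, 80.3 and 81.02 CPM in early, 10.98, 7.22 and 16.4 CPM in full and 21.4, 20.2 and 36.2 CPM in BEC.

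Of 10 nerve and Schwann cell markers, 5 were tested and Ngfr was above both ends, at 1.32, 3.52 and 2.19 CPM in full. Its share of 20% comes from a list too short to set against the 2% of all genes. Sox10 and Elavl4 gave no count in full, and the sum was 81.6 to 95.1 CPM in full, 15.5 to 21.2 CPM in early and 138 to 158 CPM in BEC. Mbp alone made up 65.99 to 77.8 CPM of the sum in full and 116 to 138 CPM in BEC. Of 15 macrophage markers, 11 were tested and Cd68 was below both ends (9.09%, against 0.407%), a share that rests on 1 gene. The sum of the 15 was 91.0 to 123 CPM in full, 151 to 165 CPM in early and 154 to 187 CPM in BEC. Most of it was Csf1r in full (61 to 73.4 CPM) and BEC (119.6 to 133 CPM) and Mpeg1 in early (123 to 136 CPM). The 15 endothelial markers summed to 20.8 to 23.4 CPM in full, 59.0 to 74.4 CPM in early and 15.8 to 29.4 CPM in BEC, and the 9 mesothelial markers to 30.1 to 45.3, 3.56 to 7.18 and 225.3 to 249.5 CPM, of which Msln made up 17.4 to 28.4 CPM in full and 187 to 212 CPM in BEC. B cell markers summed to 6.87 to 23.4 CPM in full, 1.21 to 1.64 CPM in early and 21.5 to 62.2 CPM in BEC. Markers of dendritic and other myeloid cells summed to 21.9 to 27.6 CPM in full (Zbtb46 alone 21.6 to 26.7 CPM), T and NK cell markers to 2.54 to 4.13 CPM (Lck alone 2.54 to 3.87 CPM), erythroid and platelet markers to 5.90 to 6.91 CPM and neutrophil markers to at most 0.437 CPM. The part of macrophage RNA in the genes below both ends was not tested.

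Several lists had no member beyond both ends, which at their length and the shares over all genes (2% above, 0.407% below) is little different from the background. Among them, besides the YAP targets and integrins above, were 18 hepatocyte and 20 biliary markers, 21 AP-1 and immediate early genes, 22 p53 target and senescence genes, 24 Nrf2 targets, 35 cell cycle genes and 28 chemokine genes. So were 31 sterol and fatty acid synthesis genes, 31 amino acid breakdown genes, 30 genes of the primary cilium and 42 guidance genes. In the cell cycle list 26 of 35 were higher in full than in early and none was lower, where 39.1% and 32.1% of all genes were. In that list 1 was lower than in BEC and none higher (10.7% and 10.6% of all genes), with a list median of 1.35 against early and 0.01 against BEC. Of 31 amino acid breakdown genes, 31 were lower than in early, against the same 32.1%.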

How the data were processed

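RNA from sorted mouse liver cells was sequenced in 12 libraries, 3 in each of 4 groups taken from the sample labels. The authors deposited raw counts per gene symbol. Reads were aligned with STAR 2.7.10b to GRCm39 and assigned with featureCounts 2.0.1, per the submitters' processing notes; the annotation, the strand setting and the handling of reads that match several genes are not given in the sources used here. Overlapping, antisense and near-identical genes are therefore uncertain. A second deposited table of normalized values, for which the notes name DESeq2, was not used.

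The filter was filterByExpr by group, and TMM factors scaled the counts. One model with a term per group was fitted to all 12 libraries with edgeR 4.0.16 in R 4.3.3 (limma 3.58.1). Full was tested against the midpoint, early, BEC and intermediate by the quasi-likelihood test, with p-values adjusted by Benjamini-Hochberg over all 16210 genes. The biological coefficient of variation common to these genes was 14.8%. A gene lay beyond both ends when full differed from early and from BEC in 1 direction, each at an adjusted p under 0.05 and at least 2-fold. Fold changes use a prior count of 2 only in log2 CPM. A group with no count was set to 3 counts, and a group with 1 to 3 counts was given a ratio with an exact 95% interval; PCR copies of a molecule are counted as separate reads, so such intervals and floors hold for counting error alone.

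The members, the 59 gene lists, the motifs and the rule for named genes were chosen with earlier results of these data known. The rule took the 15 genes above and 10 below with the largest distance past the nearer end, at least 10 CPM (in full for those above, in the lower end for those below), no overlap of libraries and no predicted-gene symbol. It also took up to 4 members beyond both ends of each list of 49 outside the other cell types, at 2 CPM or more in the highest group, and the sort markers Cd24a and Epcam. Some genes and 1 list that these rules cover are not reported here. Promoter windows were matched by symbol in a RefSeq table, and the first listed window was used. Alternatives covered DESeq2 1.42.0, other scaling and filters, 9 libraries, a replicate block, each library left out and other distance rules. Figures used Python 3.11.15 and matplotlib 3.10.9.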

Additional observations from a re-analysis of the deposited data

How the results depend on the processing

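The counts of 8612 genes called against the midpoint, 324 above and 66 below both ends stayed within 1.5 times under DESeq2, median-of-ratios and upper quartile factors, no filter on low counts and a fit of 9 libraries. The counts above and below did so too with a test against a 1.5-fold change and with the larger of both p-values, which were not run for the midpoint. Counts moved further with total counts as the only scaling (36 below), with a mean of at least 50 counts (188 above), without a minimum fold change (668 above and 269 below) and with at least 4-fold (147 above and 18 below). Leaving out each library in turn gave 7262 to 8687, 286 to 346 and 51 to 72 genes; an arm left with 2 libraries was still fitted with the spread pooled over groups. With the replicate block the counts were 9202, 340 and 72. Same-numbered libraries correlated across genes with r of 0.209, 0.0960 and 0.135 for full and early, 0.257, 0.170 and 0.240 for full and BEC and 0.0869, 0.0442 and 0.145 for early and BEC, and 0.322, 0.137 and 0.296 for full and intermediate. All 3 pairs were over 0.1 for full and BEC and for full and intermediate, but not for the other 2 comparisons. The main fits did not pair the libraries. In each of these comparisons, however, every library correlated best with its own number, and the deposited columns are ordered in sets by replicate number. The labels do not say whether same-numbered libraries share a mouse or a day. The p-values without the block therefore leave out a possible pairing. The block ended no call of a named gene beyond both ends. Full against intermediate, in a fit added after seeing the data, gave 6590 genes and 7300 with the block, and of the 324 genes 183 were then called higher in full and 12 lower. The share of windows with CACCTG in genes below both ends, 51.1%, was 29.8% without a minimum fold change, an alternative chosen after seeing the data.

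Of the 80 named genes beyond both ends, 16 lost their call in at least 1 of 12 fits that left out a library, and none of these changed direction. The 15 genes of at least 10 CPM in full named for their distance above both ends kept theirs in every such fit and under each scaling and filter run. Mmp11 and Peg3 fell short of 2-fold under DESeq2, median-of-ratios factors, upper quartile factors and the filter of 50 counts. Depth limits the genes with at most 3 counts in an end group, whose distance from that end is a bound or an interval. With 3 libraries per group, the spread of a single gene rests on the fit across genes.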
